A study of Mus musculus with 72 samples.

Results

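Gm10800, Gm10718, Gm10721, Gm10719, Gm10801, Gm10720, Gm10722 and Gm10717 are 8 predicted mouse genes whose annotated transcripts consist of tandem, AT-rich repeat sequence. They were chosen by their measured values in lung tumours, which were far lower with the CMV-GE11-siRE circuit, so their tumour differences are a description here and carry no test. All 8 have a row among the 36047 mouse gene rows of each of 6 tissue tables. The tables come from 72 RNA sequencing libraries of transgenic mice of the genotype EGFR DEL19, a deletion known to keep the growth factor receptor EGFR active. All of them, the controls included, had doxycycline for 25 days, formed lung tumours, and then had 7 intravenous doses of 10 mg/kg of a genetic circuit at intervals of 2 days. Tissue was taken on day 14. CMV-GE11-siRE carries an siRNA against EGFR together with GE11, an EGFR-binding peptide, CMV-siRE carries the siRNA alone, and CMV-scrR carries a scrambled RNA as the control. Tumour, lung, liver, kidney, spleen and thymus each had 4 libraries for each circuit. The sources used here do not give the promoter or cell type that drives the transgene, the age of the mice or whether the 4 libraries of a group came from separate mice, so p-values measure the spread between these libraries.

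Satellite DNA is made of short units repeated in tandem over long stretches. In the mouse the major satellite fills the heterochromatin beside the centromeres, where it is packed by histone methyltransferases, heterochromatin proteins and DNA methylation. Its transcripts are known to be scarce in most healthy adult tissue and higher in some tumours and in stressed or dividing cells. A few isolated stretches of such repeats are assembled in the reference genome, and automatic annotation gave some of them gene names although no protein product or function is established for them.

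In GENCODE M21 (genome build GRCm38) all 8 genes are annotated as protein-coding, and they form a pair of clusters. Gm10801 lies at chr2:98662237-98664083 on the plus strand and Gm10800 at chr2:98666547-98667301 on the minus strand. The other 6 lie on the plus strand near the start of the assembled chromosome 9, with Gm10722 at chr9:3000922-3002330, Gm10721 at chr9:3013140-3014344, Gm10720 at chr9:3015654-3017210, Gm10719 at chr9:3017408-3021593, Gm10718 at chr9:3023547-3025218 and Gm10717 at chr9:3025417-3033289. The lincRNA Gm26870, at chr9:3000282-3038313 on the minus strand, spans the whole chromosome 9 cluster. Whether reads were counted by strand is not stated, so reads of these 6 genes and of Gm26870 cannot be told apart. The transcripts compared here, 1 for each gene, are between 504 and 684 bases long and between 64% and 65.7% AT.

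The sequences are near-copies of one another. Leaving out Gm10801, the 21 pairs were between 86.6% and 97.4% identical over a global alignment of these transcripts, while the 7 pairs with Gm10801 were between 67.6% and 70.7% identical. The longest run of bases found in all 8 was 41 bases long. The windows below show this run in capitals with its surroundings, 5′ to 3′ along the transcript (GENCODE M21, GRCm38), for both chromosome 2 genes and for the chromosome 9 genes Gm10718 and Gm10719, which had the highest values of that cluster.
Gm10800: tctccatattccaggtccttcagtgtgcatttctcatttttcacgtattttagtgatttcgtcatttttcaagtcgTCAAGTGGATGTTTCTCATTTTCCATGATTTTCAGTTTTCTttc
Gm10801: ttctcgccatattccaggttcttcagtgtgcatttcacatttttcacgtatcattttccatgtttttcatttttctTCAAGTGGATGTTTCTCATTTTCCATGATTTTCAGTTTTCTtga
Gm10718: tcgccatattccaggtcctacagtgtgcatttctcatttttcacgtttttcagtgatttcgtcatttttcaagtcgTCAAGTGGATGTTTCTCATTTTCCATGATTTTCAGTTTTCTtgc
Gm10719: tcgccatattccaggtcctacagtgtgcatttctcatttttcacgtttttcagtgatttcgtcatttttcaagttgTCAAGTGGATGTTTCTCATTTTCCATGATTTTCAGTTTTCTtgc

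Among 55450 genes with a transcript in GENCODE M21, 11 hold the 41-base run on the sense strand and 1 holds only its reverse complement, together 0.0216% of all genes. The 11 are the 8 genes and Gm11168, Gm17535 and Gm21738, and the 12th is Gm26870. Reads that fall within this run cannot be assigned to 1 of these genes by sequence. How the counting treated such reads is not stated, so the split of the signal between the 8 genes is uncertain, and their values are not independent of one another.

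The transcripts also repeat within themselves. Slid along itself by between 100 and 300 bases, each of the 6 chromosome 9 transcripts matched best at a shift of 234 bases, where between 62.6% and 67.6% of bases were equal. Gm10800 matched best at 225 bases (56.3%) and Gm10801 at 231 bases (52.7%), and all 8 had a second peak at 58 bases. The major satellite is known for a repeat unit of 234 bases built from shorter subunits. Among 14671 other genes with a transcript of 500 to 700 bases, the median best match over the same shifts was 32.3%, and 34 genes (0.232%) reached the lowest of the 8. Gm10719 holds the 41-base run at 2 places that are 234 bases apart, and the stretch from the first copy up to the second is a full unit.
Gm10719: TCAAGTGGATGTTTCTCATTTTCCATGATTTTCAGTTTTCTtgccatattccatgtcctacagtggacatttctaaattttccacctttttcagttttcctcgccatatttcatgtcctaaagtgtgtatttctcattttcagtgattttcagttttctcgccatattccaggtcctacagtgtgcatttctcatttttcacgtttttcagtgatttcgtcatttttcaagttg

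**Figure D1:**
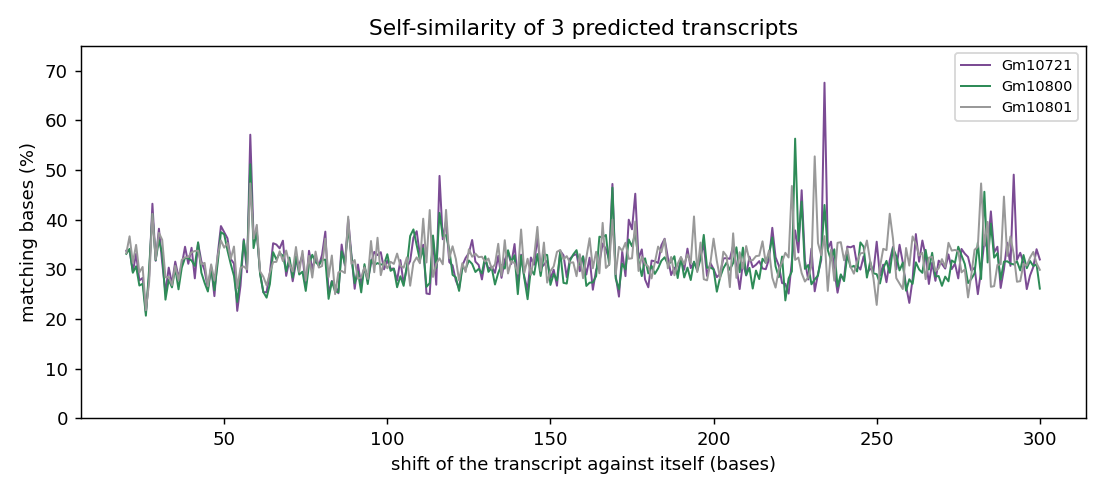
Percent of matching bases (vertical axis) when a transcript is compared with itself at each shift in bases (horizontal axis), for Gm10721, Gm10800 and Gm10801. The highest peaks lie at 234 bases for Gm10721 (67.6%), 225 for Gm10800 (56.3%) and 231 for Gm10801 (52.7%), with a shared smaller peak at 58 bases.

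Some libraries stood apart across the whole series. Mitochondrially encoded genes, 13 in each table, took between 8.04% and 37.9% of the column total in CMV-GE11-siRE tumours, 45.0% to 73.1% in CMV-siRE tumours and 63.1% to 71.4% in CMV-scrR tumours, against 0.558% to 12.7% over the 5 organs. The 7 lung epithelial markers summed to between 45381 and 92839 CPM (a gene's share of its column total, on the usual CPM scale) in CMV-GE11-siRE tumours, 3382 to 55191 CPM in CMV-siRE tumours and 2467 to 3592 CPM in CMV-scrR tumours, so the markers of the labelled tissue were present in all 12 and lowest with CMV-scrR. Of 4 B cell markers the sum was 20.4 to 284 CPM with CMV-GE11-siRE, 2.09 to 11.6 CPM with CMV-siRE and 2.12 to 7.87 CPM with CMV-scrR. The sum of 4 liver markers was 0.582 to 1.66 CPM, 1.05 to 3.94 CPM and 4.37 to 36.6 CPM in the same order of circuits, and kidney and thymus markers were at or below 4.15 CPM in every tumour. Normalized column totals ran from 5.87 M to 43.8 M in tumours and from 16.9 M to 21.4 M in organs. The approximate depth of a library, its column total over its most frequent low value, was 12.2 M to 20.9 M. Human EGFR, the transcript the siRNA is directed against, has a row (ENST00000275493.7) in the tumour table, with normalized values of 91.2, 79.8, 39.2 and 132 in CMV-GE11-siRE tumours, 890.0, 452, 718 and 1324 in CMV-siRE tumours and 2767, 1992, 4025 and 3215 in CMV-scrR tumours. By normalized value the 3 circuits did not overlap in human EGFR. Column totals were 6.64 M in CMV-GE11-siRE replicate 4 and 43.8 M in CMV-siRE replicate 3. As a share of the column total, CMV-GE11-siRE and CMV-siRE tumours thus overlapped, while CMV-scrR tumours stayed above both. By normalized value the circuits overlapped in mouse Egfr, which was 21.5 to 54.0 with CMV-GE11-siRE, 4.30 to 110.3 with CMV-siRE and 20.7 to 51.6 with CMV-scrR. CMV-GE11-siRE replicate 4 had the lowest mitochondrial share of its tissue in kidney (3.69%) and thymus (0.558%).

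By normalized value, all 8 genes were lower in every CMV-GE11-siRE tumour than in every CMV-siRE and every CMV-scrR tumour. By CPM this held for all 8 against CMV-scrR and for 6 against CMV-siRE, since Gm10720 reached 0.159 CPM with CMV-GE11-siRE against a lowest CMV-siRE tumour of 0.0597 CPM, and Gm10722 0.376 CPM against 0.240 CPM. Gm10800, the most abundant, had normalized values of 34.7, 42.1, 7.18 and 46.7 in CMV-GE11-siRE tumours, 811, 251, 6171 and 754 in CMV-siRE tumours, and 467, 6511, 5777 and 1537 in CMV-scrR tumours. The CMV-GE11-siRE tumours were all low, while CMV-siRE and CMV-scrR tumours overlapped and each spanned more than an order of magnitude. The means were 32.7 ± 17.7 with CMV-GE11-siRE, 1997 ± 2794 with CMV-siRE and 3573 ± 3016 with CMV-scrR (SD, n = 4 each). On the scale of log2(value + 1), Gm10800 differed by -6.36 ± 0.96 (SE) between CMV-GE11-siRE and CMV-scrR tumours.

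Gm10801, its neighbour on chromosome 2, had values of 0.319, 1.66, 0 and 1.75 in CMV-GE11-siRE tumours, 15.3, 5.69, 157 and 29.1 in CMV-siRE tumours and 7.14, 151, 189 and 57.7 in CMV-scrR tumours. Its log2 difference between CMV-GE11-siRE and CMV-scrR was -5.11 ± 1.04 (SE). The same libraries were high for both chromosome 2 genes, CMV-siRE replicate 3 and CMV-scrR replicates 2 and 3.

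On chromosome 9, Gm10718 had 5.04, 2.77, 0 and 2.11 in CMV-GE11-siRE tumours, 83.0, 35.1, 559 and 92.1 in CMV-siRE tumours and 51.5, 575, 527 and 168 in CMV-scrR tumours, a log2 difference of -6.30 ± 0.88 between CMV-GE11-siRE and CMV-scrR. Gm10719 had 3.47, 4.42, 2.97 and 3.16 in CMV-GE11-siRE tumours, 65.2, 22.6, 404 and 45.9 in CMV-siRE tumours and 21.2, 583, 576 and 118 in CMV-scrR tumours, a difference of -5.27 ± 0.97. Again CMV-siRE replicate 3 and CMV-scrR replicates 2 and 3 were the highest. For Gm10721 the values were 0.630, 0, 0 and 1.41 with CMV-GE11-siRE, 25.0, 15.8, 205 and 24.2 with CMV-siRE and 17.8, 314, 266 and 76.03 with CMV-scrR (log2 difference -6.22 ± 0.92). Gm10720 had 0.630, 0, 0 and 1.05 with CMV-GE11-siRE, 12.1, 1.13, 77.1 and 10.9 with CMV-siRE and 7.10, 118, 92.7 and 43.8 with CMV-scrR (-5.05 ± 1.04). Both were listed at 0 in CMV-GE11-siRE replicates 2 and 3. In Gm10722 the values were 2.21, 1.11, 0 and 0.703 with CMV-GE11-siRE, 12.1, 5.66, 144 and 4.85 with CMV-siRE and 14.2, 148, 82.9 and 43.8 with CMV-scrR (-4.87 ± 0.97). Gm10717 had 1.54, 2.34, 1.60 and 1.44 with CMV-GE11-siRE, 13.8, 7.76, 162 and 13.1 with CMV-siRE and 12.5, 181, 164 and 38.7 with CMV-scrR (-4.55 ± 0.94), the smallest difference of the 8. CMV-siRE replicate 3 was the highest CMV-siRE tumour for both.

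**Figure D2:**
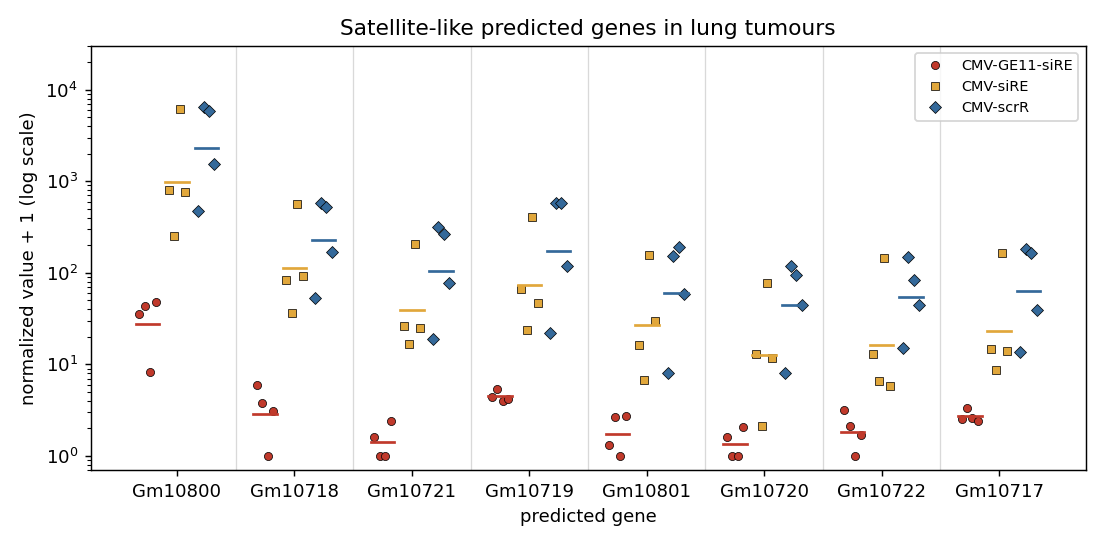
Normalized value + 1 (log axis) of the 8 genes in tumours, with 1 point for each of 4 libraries a circuit and a bar at their geometric mean. On this scale the CMV-GE11-siRE points of every gene lie below all CMV-siRE and CMV-scrR points, and the points of CMV-siRE and CMV-scrR overlap.

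The median log2 difference of the 8 genes was -5.19 between CMV-GE11-siRE and CMV-scrR, -1.33 between CMV-siRE and CMV-scrR and -3.99 between CMV-GE11-siRE and CMV-siRE, while over all 14044 genes that passed the filter on low values the medians were between 0.00 and 0.05. These 3 comparisons share libraries. Of all these genes, 21.5% also had all 4 CMV-GE11-siRE tumours below all 4 CMV-scrR tumours, 7.05% had them below all 4 CMV-siRE tumours, and 3.74% had all 4 CMV-siRE tumours below all 4 CMV-scrR tumours, where each of the 8 overlapped. By limma 41.9% of all genes passed an adjusted p of 0.05 between CMV-GE11-siRE and CMV-scrR tumours, 0.256% between CMV-siRE and CMV-scrR and 0.0214% between CMV-GE11-siRE and CMV-siRE. Nothing is read from the counts among the 8 genes, since these tumours were used to choose them. In bulk tissue, fewer cells of a type and less RNA per cell cannot be told apart.

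Levels between genes were set side by side per kilobase of exon. In CMV-scrR tumours Gm10800 averaged 198 ± 201 CPM per kb, Gm10718 17.6 ± 16.8, Gm10721 9.23 ± 9.57, Gm10801 6.98 ± 6.28 and Gm10719 6.53 ± 6.86 (SD, n = 4). Gm10722 followed with 4.204 ± 4.496, Gm10720 with 3.55 ± 3.45 and Gm10717 with 0.940 ± 0.966 CPM per kb. Apart from Gm10800, the neighbours in this order lay within their spread. Gm10719 and Gm10717 have several annotated transcripts, with 1800 and 3856 exonic bases, so their values per kilobase are spread over more sequence than the 504 to 681 bases of the other 6.

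The make-up of the signal varied less than its size. In the 10 tumours in which the 8 values summed to at least 50, Gm10800 made up between 72.8% and 80.1% of the sum, with a median of 77.4%. Gm10718 gave a median of 7.54% and Gm10719 5.96%, and each of the other 5 gave between 1.18% and 2.78%. In 16 organ libraries with a sum of at least 50, Gm10800 made up a median of 73.5% (50.5% to 86.4%), Gm10718 7.18% and Gm10719 6.69%. The order of these 3 genes by median share was thus the same in tumours and organs, and no test was made, since the tables were normalized separately.

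The mitochondrial share and the 8 genes were both lowest in CMV-GE11-siRE tumours, but within a circuit the share and the sum did not keep the same order. Their summed level was 8.27, 5.73, 1.84 and 8.79 CPM in CMV-GE11-siRE tumours with mitochondrial shares of 8.04%, 37.9%, 17.5% and 19.0%. In CMV-siRE tumours it was 85.04, 18.2, 180 and 48.2 CPM with shares of 45.0%, 61.3%, 73.1% and 61.0%, and in CMV-scrR tumours 22.2, 405, 207 and 56.4 CPM with shares of 69.8%, 63.1%, 70.1% and 71.4%. Neither measure overlapped between CMV-GE11-siRE and CMV-scrR, so that between these circuits the mitochondrial share and the circuit cannot be told apart. Within the CMV-scrR tumours the summed level differed by more than an order of magnitude between replicates 1 and 2, while the shares were 69.8% and 63.1%. Taken over the column total without mitochondrial genes, the sum was 2.23 to 10.8 CPM in CMV-GE11-siRE tumours, 47.1 to 670 in CMV-siRE tumours and 73.6 to 1097 in CMV-scrR tumours, again without overlap for CMV-GE11-siRE. The median log2 difference between CMV-GE11-siRE and CMV-scrR was -3.98 when values were scaled by the column total, -4.67 when scaled by the total without mitochondrial genes and -4.21 in a fit with that share as a further term.

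**Figure D3:**
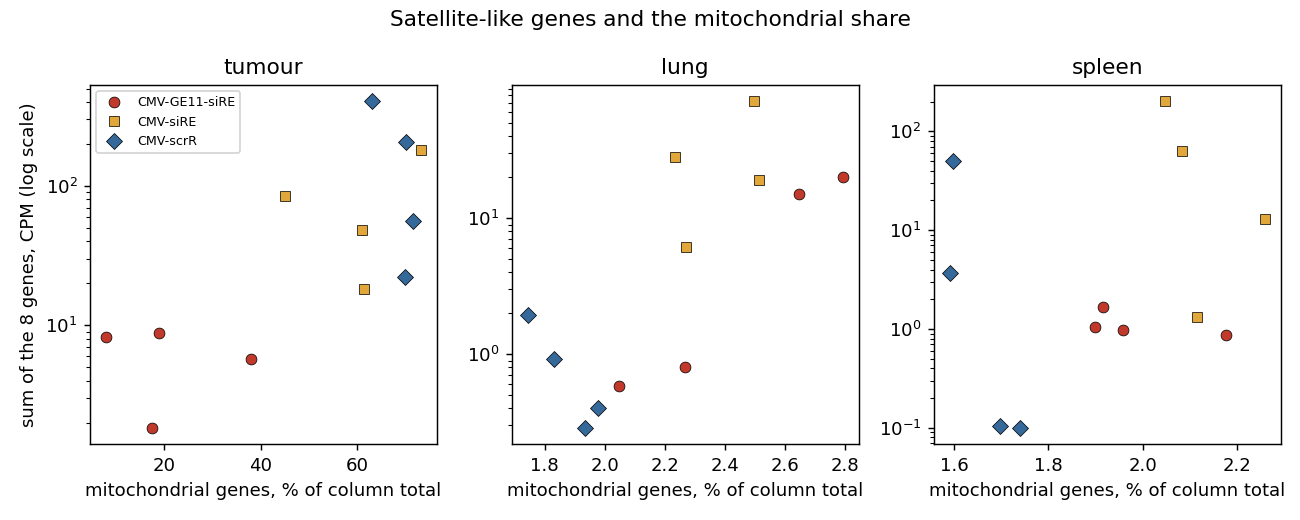
Summed CPM of the 8 genes (log axis) against the percent of the column total in mitochondrial genes, with 1 point a library, in tumour, lung and spleen (each with its own axes). In tumours the CMV-GE11-siRE libraries lie at the lower left, and the 4 CMV-scrR libraries have shares between 63.1% and 71.4% at sums between 22.2 and 405 CPM.

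The genes of olfactory and vomeronasal receptors, which are little transcribed outside sensory tissue, were taken as a group of 1971 low-level genes for comparison. In tumours their summed level was 651 to 1013 CPM with CMV-GE11-siRE, 139 to 565 CPM with CMV-siRE and 120 to 256 CPM with CMV-scrR, highest where the 8 genes were lowest. Over the total without mitochondrial genes the ranges were 957 to 1228, 518 to 1027 and 421 to 693 CPM in the same order of circuits. Olfr1033, Vmn2r66 and Olfr1023 were the most abundant of them. The part of the mitochondrial share and of the cell type markers in either group of genes was not tested.

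The genes outside the list that hold the 41-base run were also low in CMV-GE11-siRE tumours. Gm11168 had 0, 2.73, 0 and 0 in CMV-GE11-siRE tumours, 6.50, 3.43, 50.8 and 14.5 in CMV-siRE tumours and 0, 78.6, 46.3 and 20.9 in CMV-scrR tumours. Gm21738, on chromosome 14, had 0.630, 1.66, 0 and 0 with CMV-GE11-siRE, 6.45, 0, 29.3 and 4.85 with CMV-siRE and 28.4, 68.2, 31.7 and 11.5 with CMV-scrR. Gm17535 stayed at or below 0.630 with CMV-GE11-siRE, between 1.61 and 10.6 with CMV-siRE and between 0 and 18.8 with CMV-scrR. Of these, Gm21738 did not overlap between CMV-GE11-siRE and CMV-scrR. Within 100 kb of a listed gene the tables also hold Gm10715, which lacks the run and reached 0.700 with CMV-GE11-siRE, 23.9 with CMV-siRE and 34.2 with CMV-scrR, and the pseudogene Gm13806, listed at 0 in all tumours.

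Over the 12 tumours, the genes whose log2 values were most like the mean of the 8, among 14036 others, were Atp5j (Pearson r = 0.967), Ubxn1 (0.959), Lars2 (0.956), Fig4 (0.951) and Iscu (0.951). Atp5j encodes a subunit of the mitochondrial ATP synthase, Lars2 the mitochondrial leucyl-tRNA synthetase, and Iscu a scaffold of iron-sulphur cluster assembly. Lars2 had normalized values of 10422 to 19800 in CMV-GE11-siRE tumours, 36028 to 678513 in CMV-siRE tumours and 36253 to 732155 in CMV-scrR tumours. It was the only row present of a list of 6 genes related to ribosomal RNA and repeats, and by CPM it was 1573 to 2980 with CMV-GE11-siRE, 1901 to 15486 with CMV-siRE and 1345 to 19745 with CMV-scrR, so that the circuits overlapped on this scale. Over the total without mitochondrial genes Lars2 was 1976 to 3678, 4914 to 57673 and 4456 to 66074 CPM in the same order, without overlap for CMV-GE11-siRE. Its part in the values of the 8 genes was not tested. Over the 8 CMV-siRE and CMV-scrR tumours alone the most alike were Vmn1r86 (r = 0.980), Atxn7l1 (0.963), Gm48415 (0.951), Ephx2 (0.951) and Atp5j (0.939), with Lars2 at 0.885. The libraries share depth and the mitochondrial share, and these correlations are a description over few libraries.

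Genes that build, bind or modify pericentromeric heterochromatin were taken as a list of 30, all tested. Between CMV-GE11-siRE and CMV-scrR tumours 12 passed limma's test upwards and 3 downwards, with a median log2 difference of 0.52 against 0.05 for all genes, where 22.1% of all genes passed upwards and 19.8% downwards. The largest rises were those of Kmt5c, a histone H4 lysine methyltransferase (2.45 ± 0.49 SE, adjusted p = 0.00204), Dnmt3b, a DNA methyltransferase (1.66 ± 0.47, adjusted p = 0.0133), and Kdm4b, a histone H3 lysine demethylase (1.35 ± 0.32, adjusted p = 0.00537). Cenpb, which binds a motif in satellite DNA at centromeres, fell by 2.30 ± 0.26 (adjusted p = 0.000307). Cbx3, a heterochromatin protein chosen for mention once its value was known, also fell (-0.79, but 1.30 when scaled by the column total). That scaling moved the median of all genes to 2.13 and gave 29 higher and 0 lower, with Cenpb at -0.21, where 80.4% of all genes passed upwards and 0.403% downwards. Scaling by the total without mitochondrial genes gave 17 higher and 1 lower, where 43.1% and 4.27% of all genes passed in these directions. With the mitochondrial share in the fit none of the 30 passed limma's test, as was the case for all genes (0%), and 3 of the 30 had an unadjusted p under 0.05, against 4.65% of all genes. For CMV-siRE against CMV-scrR, and for CMV-GE11-siRE against CMV-siRE, none of the 30 passed by limma. In each, 9 of the 30 were under an unadjusted p of 0.05, against 21.4% of all genes in the first comparison and 26.2% in the second. Between CMV-GE11-siRE and CMV-siRE the scaling by the column total gave 28 higher and 0 lower (75% and 0.249% of all genes), and that by the total without mitochondrial genes 10 higher and 1 lower (12.9% and 0.42%).

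In lung, liver, kidney, spleen and thymus, whose libraries the choice of the genes did not use, the 8 genes were mostly low. Per kilobase, the median of Gm10800 over 12 libraries was 41.4 CPM in tumour, 3.98 in lung, 1.499 in spleen, 1.18 in kidney, 0.453 in liver and 0.136 in thymus. Each tissue was normalized on its own, so these levels are set side by side without a test, and the ranges of neighbouring tissues overlapped. The highest organ library, CMV-siRE replicate 4 of spleen, reached 233 CPM per kb, against 466 CPM per kb in the highest tumour.

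**Figure D4:**
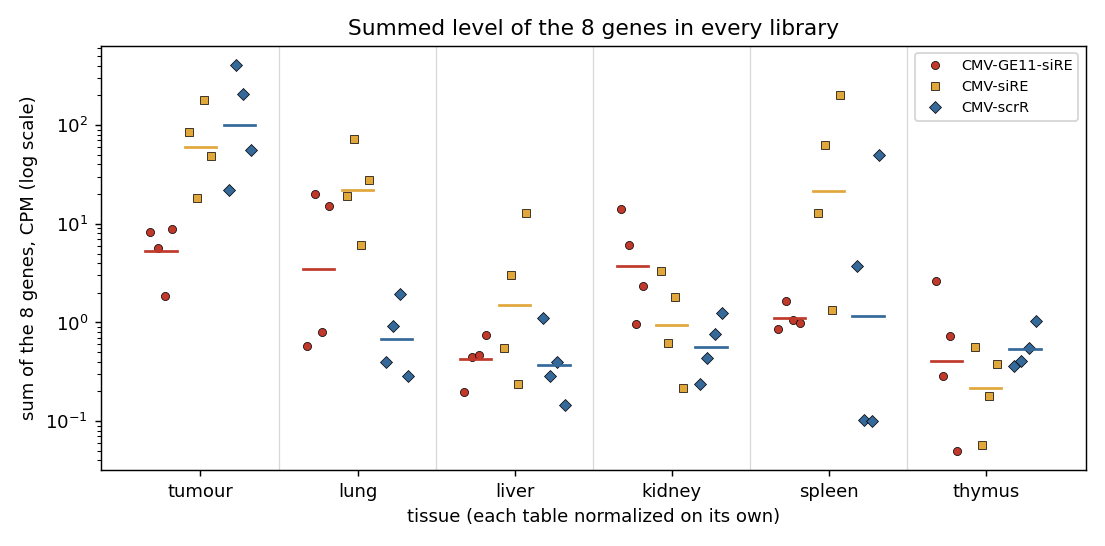
Summed CPM of the 8 genes (log axis) in every library of 6 tissues, with 4 points a circuit and a bar at the geometric mean. The CMV-GE11-siRE tumours lie between 1.84 and 8.79 CPM. In lung the CMV-siRE libraries lie between 6.16 and 72.5 CPM and the CMV-scrR libraries between 0.288 and 1.94 CPM. In spleen the ranges are 1.33 to 202 CPM and 0.0997 to 49.9 CPM.

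In lung, Gm10800 was higher with CMV-siRE than with CMV-scrR. Its values were 291, 1092, 84.1 and 421 in CMV-siRE lungs and 0.993, 7.31, 19.8 and 2.85 in CMV-scrR lungs, with no overlap. The log2 difference was 5.76 ± 1.17 (SE, n = 4 each, adjusted p = 0.0317 by limma), and the means were 472 ± 436 with CMV-siRE and 7.75 ± 8.48 with CMV-scrR (SD). It was the 1 gene of the 4 tested that passed, where 0.483% of all genes passed upwards. The call was lost when CMV-siRE replicate 1, 2 or 4 or CMV-scrR replicate 1, 2 or 4 was left out, with adjusted p between 0.0557 and 0.0883 and log2 differences between 5.18 and 5.91. It was also lost with the mitochondrial share as a covariate (2.81, adjusted p = 0.664). That share was 2.23% to 2.51% in CMV-siRE lungs and 1.74% to 1.98% in CMV-scrR lungs, again with no overlap. The 4 liver markers summed to 8.14 to 30.4 CPM in CMV-siRE lungs and 1.96 to 4.11 CPM in CMV-scrR lungs, also with no overlap. The 4 kidney markers reached 16.5 CPM in CMV-siRE lungs and 1.09 CPM in CMV-scrR lungs, from lows of 0.151 and 0.150 CPM. The part of these markers and of the mitochondrial share in the difference was not tested beyond the fit with that share.

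Of the 3 other genes tested in lung, Gm10718 had 27.8, 105, 5.72 and 42.8 in CMV-siRE lungs and 0.992, 5.22, 4.18 and 0 in CMV-scrR lungs (log2 difference 3.44 ± 1.09, adjusted p = 0.119 by limma). Gm10719 had 22.8, 74.7, 17.2 and 24.1 with CMV-siRE and 0, 2.08, 12.6 and 0.946 with CMV-scrR (3.33 ± 1.02, adjusted p = 0.108). Gm10721 had 7.87, 70.4, 1.89 and 19.7 with CMV-siRE and was listed at 0 in all 4 CMV-scrR lungs (adjusted p = 0.104). None of these 3 passed, all 3 had an unadjusted p under 0.05, and their groups did not overlap. For Gm10718 (at most 5.22) and Gm10721 (0), no CMV-scrR lung reached the minimum of the filter on low values. Only lungs of the other circuits brought Gm10718 and Gm10721 into the test, so their unadjusted p is not read as a rise. Including 2 genes below the filter, 6 of the 8 had all CMV-siRE lungs above all CMV-scrR lungs, against 5.41% of all genes tested, and Gm10801 and Gm10717 overlapped. That share leaves out genes below the filter, and the 8 near-copies are not independent, so the count is not read as an excess. All 8 genes were above 0 in all 4 CMV-siRE lungs, and 17 of the 32 CMV-scrR values were at 0.

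CMV-GE11-siRE lungs were split. Gm10800 had 8.69, 288, 6.85 and 213 there, with replicates 2 and 4 in the range of CMV-siRE lungs and replicates 1 and 3 in that of CMV-scrR lungs. The log2 difference from CMV-scrR was 2.95 ± 1.17 (adjusted p = 0.537 by limma) and from CMV-siRE -2.81 ± 1.17 (adjusted p = 0.456). None of the 4 tested genes passed in either comparison, and 0% and 0.0619% of all genes passed by the adjusted p. In each comparison 1 of the 4 had an unadjusted p under 0.05, a threshold those shares do not describe, so it is not read as an excess. Replicates 2 and 4 also had the highest mitochondrial shares of the CMV-GE11-siRE lungs, 2.79% and 2.65%, against 2.05% and 2.26% in replicates 1 and 3. Over the 4 CMV-GE11-siRE lungs the liver markers summed to 4.05 to 30.5 CPM and the kidney markers to 0.191 to 28.0 CPM.

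Across the 12 lungs the log2 CPM of the 4 genes was correlated with the mitochondrial share, as 4 of 9 relations examined in 3 organs. Gm10800 had Pearson's r = 0.766 (permutation p = 0.0054, adjusted 0.0345) and Spearman's rho = 0.622 (permutation p = 0.0355, adjusted 0.106). For Gm10721 r was 0.682 (permutation p = 0.0115, adjusted 0.0345) and rho 0.784 (permutation p = 0.00411, adjusted 0.037), and for Gm10719 r was 0.723 (permutation p = 0.00774, adjusted 0.0345) and rho 0.732 (permutation p = 0.00934, adjusted 0.042). Gm10718 had r = 0.639 (permutation p = 0.024, adjusted 0.054) and rho = 0.581 (permutation p = 0.0501, adjusted 0.113). The 4 CMV-scrR lungs had the lowest shares of the 12 (1.74% to 1.98%), and Gm10721 was listed at 0 in all of them. Gm10718 and Gm10721 passed the filter only through lungs of the other circuits. Their correlations over all 12 lungs therefore cannot be told apart from the difference between circuits. Without the 2 lungs farthest from the median share, r was 0.788 for Gm10800, 0.821 for Gm10719, 0.657 for Gm10718 and 0.610 for Gm10721, and the adjusted p of r stayed below the threshold of 0.05 for Gm10800 and Gm10719. Over these 10 lungs the adjusted p of r was 0.112 for Gm10721, and the adjusted p of rho was 0.0866 for Gm10721 (rho = 0.718) and for Gm10719 (rho = 0.766), so that neither rho passed any longer. With the circuit means subtracted and values permuted within circuits, r was 0.584 to 0.741 and none of the 4 held (permutation p between 0.0857 and 0.109).

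Spleen held the widest spread of the organs. Gm10800 had 8.51, 25.9, 6.97 and 7.83 in CMV-GE11-siRE spleens, 177, 890, 12.8 and 2932 in CMV-siRE spleens and 39.1, 0, 0.981 and 658 in CMV-scrR spleens. The CMV-GE11-siRE spleens were all low, and CMV-siRE and CMV-scrR each held high and low libraries. The log2 difference was 4.22 ± 1.83 between CMV-siRE and CMV-scrR (adjusted p = 0.207 by limma), -0.38 ± 1.83 between CMV-GE11-siRE and CMV-scrR (adjusted p = 0.917) and -4.61 ± 1.83 between CMV-GE11-siRE and CMV-siRE (adjusted p = 0.43). None of the 4 genes tested, Gm10800, Gm10718, Gm10719 and Gm10717, passed in any of the 3 comparisons. No CMV-GE11-siRE spleen reached the filter's minimum of 10 for Gm10718 (at most 3.79), Gm10719 (9.77) or Gm10717 (5.04). Only spleens of the other circuits brought these genes into the test, so their unadjusted p is not read as a fall with CMV-GE11-siRE. Of all genes, 4.61%, 5.76% and 0.112% passed by the adjusted p in the same order. Unadjusted p was under 0.05 for 1, 0 and 3 of the 4 genes. Those shares are at another threshold and the genes are near-copies, so these counts are not read as an excess. The first value depended on single libraries and lay between 2.92 and 6.04 when 1 library was left out. The upper end came without CMV-scrR replicate 4 (adjusted p = 0.0498 by limma). Without that library Gm10800 differed by 1.43 between CMV-GE11-siRE and CMV-scrR.

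The other genes followed the same libraries in spleen. Gm10718 had 271 and 90.2, Gm10719 247 and 75.5, and Gm10801 107 and 27.5 in CMV-siRE replicate 4 and CMV-scrR replicate 4. Gm10719 and Gm10801 were lower in all CMV-GE11-siRE spleens than in all CMV-siRE spleens, as were 2.94% of all genes tested, which leave out Gm10801 since it was below the filter. The mitochondrial share was 1.90% to 2.18% in CMV-GE11-siRE spleens, 2.05% to 2.26% in CMV-siRE spleens and 1.59% to 1.74% in CMV-scrR spleens. CMV-scrR replicate 4, with the 2nd lowest share of its group (1.60%), had the highest sum of the 8 genes in that group (49.9 CPM). For the 4 genes r with the share was between 0.052 and 0.164 over the 12 spleens (permutation p between 0.606 and 0.872, adjusted 0.849 to 0.872), and rho was between 0.0175 and 0.245 (permutation p between 0.444 and 0.961). Without the 2 spleens farthest from the median share, r was between 0.284 and 0.450, and rho of Gm10800 was 0.673 (permutation p = 0.0381, adjusted 0.0866).

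**Figure D5:**
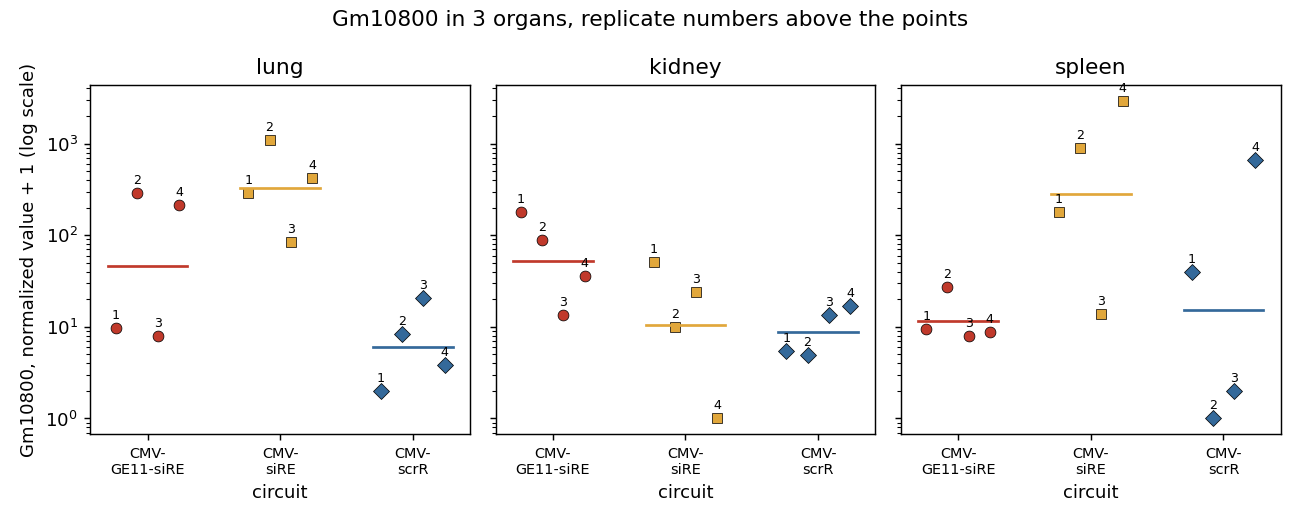
Gm10800, normalized value + 1 (log axis), in lung, kidney and spleen by circuit, with replicate numbers above the points and a bar at the geometric mean. All 4 CMV-siRE lungs (84.1 to 1092) lie above the CMV-scrR lungs (0.993 to 19.8), and in spleen CMV-siRE replicates 2 and 4 and CMV-scrR replicate 4 are high.

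In kidney only Gm10800 passed the filter. It had 180, 88.5, 12.4 and 35.3 in CMV-GE11-siRE kidneys, 50.4, 8.86, 23.1 and 0 in CMV-siRE kidneys and 4.43, 3.99, 12.4 and 16.1 in CMV-scrR kidneys, and the groups overlapped. The log2 difference between CMV-GE11-siRE and CMV-scrR was 2.58 ± 1.098 (SE, unadjusted p under 0.05, adjusted p = 0.52 by limma). In each of the 3 kidney comparisons 0% of all genes passed, with 1218 under an unadjusted p of 0.05 for CMV-GE11-siRE against CMV-scrR. Without CMV-GE11-siRE replicate 4 the difference of Gm10800 was 2.76 (adjusted p = 0.78). Gm10718 was above 0 in all 4 CMV-GE11-siRE kidneys (3.08 to 16.4) and listed at 0 in all 4 CMV-scrR kidneys, while the other 7 genes overlapped. Of all genes tested, which leave out Gm10718, 2.77% were separated in that direction, so this is not read as a difference. Between CMV-siRE and CMV-scrR kidneys the log2 difference of Gm10800 was 0.25 ± 1.098 (adjusted p = 0.934), and r with the mitochondrial share over the 12 kidneys was -0.110 (permutation p = 0.725, adjusted 0.849), with rho = -0.154 (permutation p = 0.633, adjusted 0.814).

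In liver and thymus none of the 8 genes passed the filter, so they were not tested there. Gm10800 was at 1.04, 6.38, 0.951 and 9.27 in CMV-GE11-siRE livers, 6.88, 43.5, 2.94 and 167 in CMV-siRE livers and 17.8, 3.01, 5.99 and 2.90 in CMV-scrR livers. CMV-siRE replicate 4, with 12.9 CPM for the sum of the 8 genes, was the highest liver. Gm10717 was higher in all CMV-siRE livers (1.93 to 5.55) than in all CMV-scrR livers (0 to 1.91), while the other 7 genes overlapped. The nearest libraries were at 1.93 and 1.91, close to the floor. Of all genes tested, which leave out Gm10717, 6.1% were separated in that direction, so this is not read as a difference. In thymus Gm10800 had 33.9, 0.975, 3.94 and 0.918 with CMV-GE11-siRE, 2.94, 0.989, 0 and 0 with CMV-siRE and 2.19, 0, 3.85 and 7.81 with CMV-scrR. Of the 32 thymus values of the 8 genes in each circuit, 19 were at 0 with CMV-GE11-siRE, 26 with CMV-siRE and 21 with CMV-scrR.

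Libraries labelled with CMV-siRE replicates 2 and 4 were the highest 2 of their group in lung, liver and spleen. The labels do not say that a replicate number marks 1 mouse across tissues. In tumours they were the lowest 2 of their group, with sums of the 8 normalized values of 345 and 974, against 1037 and 7878 in replicates 1 and 3. In kidney and thymus these 2 libraries were not the highest of their group, with Gm10800 at 8.86 and 0 in kidney and 0.989 and 0 in thymus.

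Of the heterochromatin list, Cbx5, a heterochromatin protein, was higher in CMV-siRE livers than in CMV-scrR livers (0.53 ± 0.13 SE, adjusted p = 0.0392 by limma), and Hells, a chromatin remodeller, was higher in CMV-siRE spleens than in CMV-scrR spleens (0.49 ± 0.12, adjusted p = 0.039), where 2.06% of all genes in liver and 1.73% in spleen passed upwards. With CMV-GE11-siRE, Cbx5 (0.62) and Atrx (0.44), a remodeller that loads a histone variant at satellites, were higher than with CMV-scrR in liver and Hells (0.56) in spleen, where 2.19% and 2.29% of all genes passed upwards. By limma, the call of Cbx5 with CMV-siRE was lost with the replicate number as a block (adjusted p = 0.0656), with no filter on low values (0.0504), with only the 8 libraries compared (0.0605), with the mitochondrial share in the fit (0.111), and when a CMV-scrR liver other than replicate 2 or a CMV-siRE liver other than replicate 4 was left out (0.0661 to 0.12). With CMV-GE11-siRE, Cbx5 lost it with that share in the fit (0.0647) and without CMV-GE11-siRE replicate 3 or CMV-scrR replicate 1 or 3 (0.0514 to 0.0582). Atrx lost it with the block (0.0563), with no filter (0.0632), with the share (0.0982), and without CMV-GE11-siRE replicate 1, 2 or 3, CMV-siRE replicate 1 or 2 or any 1 of the CMV-scrR livers (0.0527 to 0.124). Hells with CMV-siRE lost it with the block (0.0946), with no filter (0.0551), with the share (0.884), and without CMV-GE11-siRE replicate 1, any 1 of the CMV-siRE spleens or CMV-scrR replicate 1, 3 or 4 (0.0572 to 0.108). Hells with CMV-GE11-siRE lost it with the block (0.0682), with only the 8 libraries (0.0571), with the share (0.849), and without CMV-GE11-siRE replicate 1, 3 or 4 or CMV-scrR replicate 1 or 3 (0.0539 to 0.0777).

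None of the 30 passed limma's test in lung, kidney or thymus, where at most 5 had an unadjusted p under 0.05. The share of all genes at that unadjusted threshold is not given here, so these counts are not read as an excess. The share of all genes that passed was 1.41% for CMV-siRE against CMV-scrR in lung, 0.00609% for the same comparison in thymus, 0% for CMV-GE11-siRE against CMV-scrR in both, and 0% in each kidney comparison. In thymus, other fits did call members of the list. With the mitochondrial share in the fit, 1 was higher and 9 lower for CMV-siRE against CMV-scrR, where 5.79% of all genes passed upwards and 11.4% downwards, and 2 were lower for CMV-GE11-siRE against CMV-scrR, where 4.04% of all genes passed downwards. With only the 8 libraries compared, 6 were lower in CMV-siRE thymuses than in CMV-scrR thymuses (7.45% of all genes), and 3 in CMV-siRE kidneys than in CMV-scrR kidneys (4.18%).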

How the data were processed

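Total RNA was extracted with TRIzol and sequenced from TruSeq RNA libraries, per the labels' protocols. The deposited tables hold fractional signal values per gene, 1 table a tissue, which the authors had already normalized. DESeq2 is named in the submitters' processing notes, with no further detail. No source used here names the aligner, the counting tool, the build or the annotation. Of 36047 mouse gene identifiers, 35968 matched GENCODE M21 and 79 did not. Whole reads were not recovered, so no count model was used and no counting interval is given.

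Genes that reached 10 in 4 or more of the 12 libraries were tested with limma 3.58.1 (limma-trend, R 4.3.3) on log2(value + 1), which understates changes of low genes. Each tissue had 1 fit of its 12 libraries with a mean for each circuit. Adjustment was by Benjamini-Hochberg across every gene tested, with a threshold of 0.05. The fit was tested on simulated data. CPM is a value over its column total. Correlations used permutation tests with 100000 resamples in numpy 2.4.6, two-sided, adjusted over 9 relations. Sequences came from GENCODE M21 transcripts and were aligned with Biopython 1.88. The genes and lists were chosen with earlier results of these data known. All 8 genes, their neighbours within 100 kb, the 5 most alike genes over each set of tumours and up to 4 genes of the heterochromatin list by size of change are named. Alternatives were other pseudocounts, filters, scalings and fits, and leaving out each library. Markers of nuclear noncoding RNA and of RNA without a poly(A) tail were not analysed here.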

Additional observations from a re-analysis of the deposited data

Results flagged for a closer look

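Among 18 groups of 4 libraries, the log2(value + 1) of Gm10800 had 1 library far from the other 3 in 2 groups, and chance gives about 1 in 20. In CMV-GE11-siRE tumours the lowest library, replicate 3 (7.18, against 34.7 to 46.7 in the other 3), lay away from its nearest neighbour by 0.835 of the range of the group. In CMV-GE11-siRE spleens the highest, replicate 2 (25.9, against 6.97 to 8.51), lay away by 0.855 of the range. Both are above Dixon's critical value for 4 libraries.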

How the results depend on the processing

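Under all alternatives the median tumour differences kept their sign and moved by less than the spread between libraries (pooled SD within circuits of 1.52 in mean log2). These tumours chose the genes, so the kept sign is only a description. That spread is wider than the main difference between CMV-siRE and CMV-scrR, so it sets a loose limit there. With 1 library left out, the medians lay between -6.17 and -4.68 (CMV-GE11-siRE against CMV-scrR), -2.20 and -0.82 (CMV-siRE against CMV-scrR) and -4.60 and -3.15 (CMV-GE11-siRE against CMV-siRE). In lung, CMV-siRE against CMV-scrR, the number of genes passing was 2 without a filter, 0 with the mitochondrial share in the fit and 0 to 2 when 1 library was left out (2 without CMV-GE11-siRE replicate 1, when Gm10719 also passed), against 1. In spleen it was 0 to 1, against 0. In the other organ comparisons it was 0 in every alternative run. Gm10800 changed sign, without passing in either case, for CMV-GE11-siRE against CMV-scrR in lung with the covariate (-0.34) and in spleen with a pseudocount of 0.1 (0.54), with the covariate (4.23), without CMV-siRE replicate 4 and CMV-scrR replicate 4 together, chosen after seeing the data (1.43), and over single libraries left out (-1.69 to 1.43). In kidney, CMV-siRE against CMV-scrR, it did so with a pseudocount of 0.1 (-0.46) and over single libraries left out (-0.52 to 1.38). Correlations in lung lost their adjusted significance with circuit means subtracted, added after seeing the data (0.741 for Gm10800, 0.607 for Gm10721, 0.639 for Gm10719), and for Gm10721 without the 2 libraries farthest from the median share (0.610), where rho also lost it for Gm10721 and Gm10719 (adjusted p = 0.0866), while Gm10718 gained it over the total without mitochondrial genes (0.641) and with a pseudocount of 0.1 (0.664). In kidney r changed sign without those 2 libraries (0.088) and with means subtracted (0.178), as did, with means subtracted, Gm10800 (-0.412), Gm10718 (-0.354), Gm10719 (-0.619) and Gm10717 (-0.375) in spleen. The cause was not tested. Within a tissue, same-numbered libraries of different circuits did not deviate together (median r between -0.07 and 0.05 over the tissues). Libraries of 1 number were not compared across tissues. With the replicate number as a block Gm10800 kept its lung call (adjusted p = 0.0243 by limma, log2 difference 5.76) and the numbers passing stayed at 1 in lung and 0 elsewhere. Low values limit the tests in liver and thymus.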
